A study of Mus musculus with 3 samples.

Results

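The chromatin domains around 5 genes that run the signalling centres of the limb bud were described: Shh, Gli3, Grem1, Hand2 and Fgf8, together with the ZRS, the limb enhancer of Shh. For each point the domain that holds it was taken from the deposited domain table in mm9, with 1 domain on each side. Shh and the ZRS fell in the same domain, so the 6 points gave 5 holding domains and 10 flanking domains, 15 of the 4124 domains in the table. The points are 28.79 Mb (Shh) and 29.64 Mb (ZRS) on chromosome 5, 15.56 Mb on chromosome 13 (Gli3), 113.59 Mb on chromosome 2 (Grem1), 59.8 Mb on chromosome 8 (Hand2) and 45.81 Mb on chromosome 19 (Fgf8). They are given to the nearest 10 kb, and the table places domain edges at multiples of 25 kb.

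The table came from Hi-C, which measures how often pieces of DNA are close together in the nucleus, on forelimb and hindlimb buds pooled from wild-type (WT) mouse embryos of stage E11.5. All 3 libraries belonged to this 1 group, were technical repeats from 1 pool of tissue, and were given together as 1 value per domain. The protocol text counts 8 embryos and the design text 10, and a cell type label names G4 ESC, an embryonic stem cell line, beside a source label that names limb bud. No expression was measured, so the tissue could not be checked by marker genes, and no value has an error between libraries or a known depth. The buds were used whole, so cells that express these genes and cells that do not are averaged in every value.

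Shh is the secreted signal of the zone of polarizing activity at the posterior margin of the bud, and sets the number and identity of the digits. The ZRS lies in an intron of the gene Lmbr1, far from Shh, and drives Shh only in the limb. Gli3 is a transcription factor that acts as a repressor where Shh signalling is absent. Hand2 is a posterior transcription factor that activates Shh and opposes Gli3. Grem1 is a secreted BMP antagonist that links Shh to Fgf8, a growth factor made by the apical ectodermal ridge at the tip of the bud. Genes and their enhancers mostly meet within the same domain, and a stripe is a line of raised contact that runs from 1 anchor along a domain.

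Each domain carries a random forest probability between 0 and 1, and class 1, the stripe class, goes with a probability of 0.5 or more. It also carries a direction of TRUE or FALSE and 3 scores named imbalance, imbalance difference and cosine. The sources used here do not say which end TRUE names or how the scores are computed. Ranks below are the percent of all domains with a lower value, with ties given a weight of 0.5. Because class goes with probability, a probability rank within 1 class follows from the rank over all domains. Imbalance and imbalance difference are also lower in class 0 than in class 1, so their ranks within a class move for that reason too. The flank towards lower coordinates is called the lower flank and the other the upper flank, whatever the strand of the gene.

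Shh and the ZRS shared a domain, and each lay close to one of its ends. The domain spanned 28775001 to 29675000 on chromosome 5, a length of 900 kb. Shh was 15 kb from the lower edge and the ZRS 35 kb from the upper edge, and no domain edge lay between them. The 850 kb between the points made up 94.4% of the domain. Of 87885 positions at steps of 25 kb in domains, 15.7% shared their domain with the position 850 kb further on, and 529 of all domains (12.8%) were at least that long. RefSeq's gene order (assembly GRCm38.p6, used for names only) places Rnf32 between Shh and Lmbr1 as the only protein-coding gene.

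This shared domain was long and had a low imbalance score. Its length ranked at 88.9, with 440 domains longer. Its probability was 0.24 (rank 43.3) and it was class 0, so no stripe was called in it. The imbalance score of 0.108 ranked at 18.8 and the imbalance difference score of 0.0750 at 29.4, whereas the cosine score of 0.783 ranked at 76.6. Within class 0 alone, its probability ranked at 66.8, its imbalance at 26.2 and its imbalance difference at 41.7. Among the 224 domains between 800 and 1000 kb long, 65 (29.0%) were class 1, the median imbalance was 0.261, and 48 had a lower imbalance than the Shh domain.

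Both neighbours of the Shh domain carried a stripe call. The lower flank, 28425001 to 28775000, had a probability of 0.63 and an imbalance score of 0.607. The upper flank, 29675001 to 30050000, had a probability of 0.82 and an imbalance score of 0.586. Both shared an edge with the domain of Shh, and all 3 domains had direction TRUE. Of the 2653 class 0 domains with a neighbour on each side, 297 (11.2%) had class 1 on both sides, and 23.8% of all domains with both neighbours matched both in direction. The Shh domain was 2.48 times as long as the mean of its flanks, which were 350 and 375 kb.

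**Figure D1:**
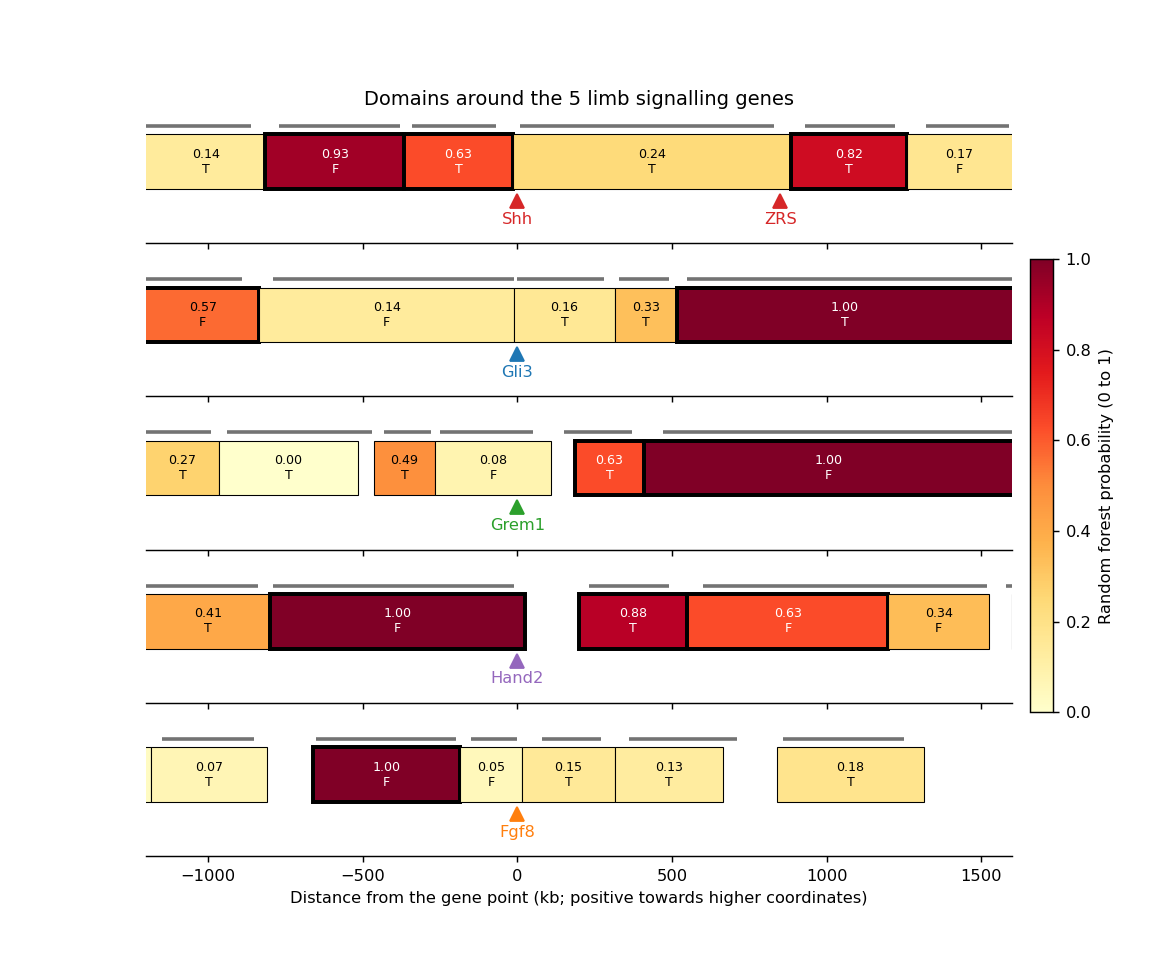
Domains around each gene by distance from its point in kb, coloured by random forest probability (printed in each box with T or F for direction TRUE or FALSE). Thick outlines mark class 1, grey bars mark the tuned edges, and white space between boxes is sequence in no domain. Shh and the ZRS stand near the ends of a class 0 domain between class 1 domains, and Hand2 stands near the upper end of a class 1 domain.

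Whether Shh and the ZRS share a domain depended on which edges were used. The table's second pair of edges, tuned on a grid of 10 kb, ran from 28800001 to 29620000, which is 25 kb inside the first at the lower end and 55 kb inside at the upper end. Shh was 10 kb outside these tuned edges and the ZRS 20 kb outside. With tuned edges, then, neither point was in a domain, and the tuned domain of 820 kb lay wholly between them. With both points moved 25 kb towards lower coordinates, Shh fell into the lower flank and the ZRS stayed, so that the domain edge came between them. With both moved 25 kb the other way they still shared the domain.

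Gli3 lay in a shorter domain with no stripe call on it or beside it. Its domain spanned 15550001 to 15875000 on chromosome 13, a length of 325 kb (rank 32.9), and the point was 10 kb from the lower edge. The probability was 0.16 (rank 35.3). The imbalance score of 0.416 ranked at 61.2, and it was just under 0.429, where class 1 begins apart from a separate band of class 1 at low imbalance. Of the 2676 class 0 domains, 243 had an imbalance at least as high. The imbalance difference score was 0.107 (rank 40.7) and the cosine score 0.593 (rank 39.6). Within class 0 alone, the ranks were 54.4 for probability, 90.9 for imbalance and 58.7 for imbalance difference.

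The flanks of the Gli3 domain were unlike each other in length. The lower flank, 14725001 to 15550000, was 825 kb long with direction FALSE and a probability of 0.14. The upper flank, 15875001 to 16075000, was 200 kb long with direction TRUE and a probability of 0.33. Gli3 was thus next to an edge where a long domain of direction FALSE met its own domain of direction TRUE. The lower flank's tuned end stood at that same edge, 15550000, and the tuned start of the Gli3 domain was 10 kb above it, at the Gli3 point itself. No flank in class 1 was found for 42.4% of class 0 domains. Among the 5 loci, that of Gli3 was the only one with no class 1 domain among its 3 domains. This depended on the position of the point. Moved 25 kb towards lower coordinates, Gli3 fell into the lower flank of 825 kb, whose own lower neighbour, 14300001 to 14725000, was class 1 with a probability of 0.57.

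Grem1 lay in the holding domain with the lowest imbalance of the 5. Its domain spanned 113325001 to 113700000 on chromosome 2 and was 375 kb long (rank 44.8). The imbalance score was 0.0310 (rank 5.7), with 233 of all domains lower. The imbalance difference score was 0.0198 (rank 8.1), the probability 0.08 (rank 14.7) and the cosine score 0.798 (rank 80.4). Within class 0 alone, the ranks were 8.73 for imbalance, 12.4 for imbalance difference and 22.6 for probability. The point was 265 kb from the lower edge and 110 kb from the upper edge, which makes Grem1 the only one of the 6 points in the inner part of its domain. In RefSeq's gene order its neighbours are Fmn1, whose locus holds known limb enhancers of Grem1, on the lower side and Scg5 on the upper side.

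The neighbours of the Grem1 domain were short. The lower flank, 113125001 to 113325000, was 200 kb long and class 0 with a probability of 0.49, just under the threshold, at an imbalance score of 0.107. Only 16 domains had a probability of 0.49. The upper flank, 113775001 to 114000000, was 225 kb long and class 1, with a probability of 0.63 and an imbalance score of 0.769. A gap of 75 kb in no domain separated it from the Grem1 domain, and 33.0% of the 1021 gaps in the table were that short or shorter. The tuned start of this flank was 35 kb below its first start and so lay inside the gap.

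Hand2 lay in the one holding domain with a stripe call, and that call was among the strongest. The domain spanned 59000001 to 59825000 on chromosome 8, was 825 kb long (rank 86.8) and had direction FALSE. Its probability was 1.00, a value that 7.54% of domains had. The imbalance score of 0.969 ranked at 91.6 and the imbalance difference score of 0.572 at 97.1, with 120 domains higher. The cosine score of 0.646 was close to the median of all domains, 0.652. Within class 1 alone, the ranks were 89.6 for length, 76.3 for imbalance, 91.7 for imbalance difference and 63.8 for cosine. With the point moved 25 kb towards higher coordinates, Hand2 was in the gap above this domain.

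The Hand2 point was 800 kb from the lower edge and 25 kb from the upper edge. Above that edge came a gap of 175 kb, longer than the median gap of 125 kb. Beyond the gap stood the upper flank, 60000001 to 60350000, in class 1 with a probability of 0.88, direction TRUE and an imbalance score of 0.687. The lower flank, 58500001 to 59000000, shared an edge and was class 0, with a probability of 0.41 and an imbalance score of 0.0586. Hand2 thus stood beside a gap with class 1 domains of unlike direction on either side, FALSE below and TRUE above. Class 1 above and class 0 below was found for 23.5% of the 1433 class 1 domains with both neighbours. With tuned edges the Hand2 domain ended at 59790000, and the point was 10 kb outside it.

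Fgf8 lay in the shortest of the 5 holding domains. Its domain spanned 45625001 to 45825000 on chromosome 19 and was 200 kb long, and 453 domains (11.0%) were that short or shorter. The point was 185 kb from the lower edge and 15 kb from the upper edge. The probability was 0.05 (rank 12.5), the imbalance score 0.116 (rank 20.1) and the imbalance difference score 0.0754 (rank 29.5). The cosine score of 0.897 ranked at 96.7, with 135 domains higher, the highest rank of the 5 for this score. Within class 0 alone, the ranks were 19.3 for probability, 27.5 for imbalance and 41.9 for imbalance difference. In RefSeq's gene order Fbxw4, whose introns hold known limb enhancers of Fgf8, comes before Fgf8 and Npm3 after it.

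The flanks of the Fgf8 domain differed in class. The lower flank, 45150001 to 45625000, was class 1 with a probability of 1.00, an imbalance score of 1.18 (rank 95.4) and an imbalance difference score of 0.562 (rank 96.8). The upper flank, 45825001 to 46125000, was class 0 with a probability of 0.15, although its imbalance score of 0.422 and imbalance difference score of 0.298 were high for that class. Of the class 0 domains, 216 had an imbalance at least as high, and 97.9% had a lower imbalance difference. The short domain of Fgf8 thus lay next to the flank of highest imbalance among the 15 domains, and both flanks shared an edge with it. This too depended on the position of the point. Moved 25 kb towards higher coordinates, Fgf8 fell into the upper flank, which had class 0 on both sides. The tuned end of the Fgf8 domain was at 45810000, the position of the point itself.

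**Figure D2:**
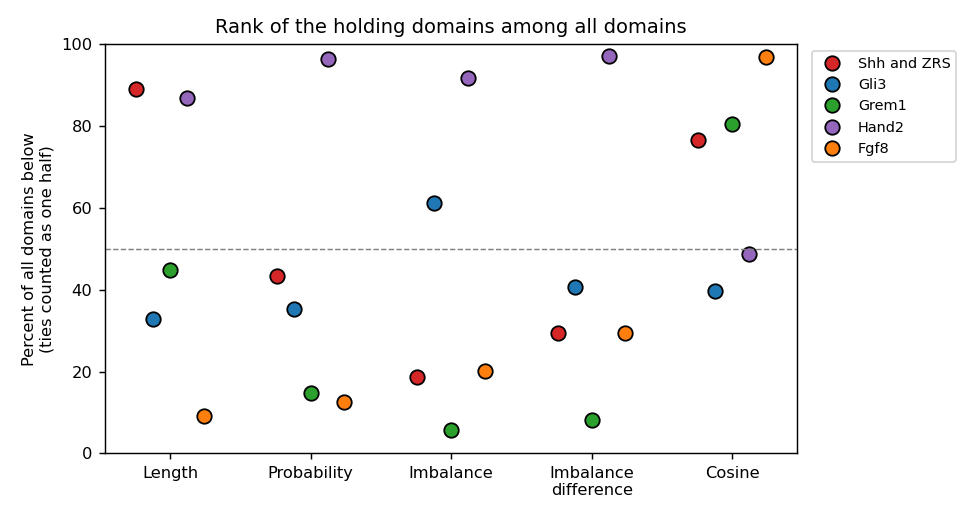
Rank of each holding domain among all domains, as the percent of domains below its value, for length, probability and the 3 scores; each point is 1 domain and the dashed line marks 50. Hand2 ranks at 86.8 or higher for length, probability, imbalance and imbalance difference, and Grem1 ranks lowest for imbalance and imbalance difference.

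Set side by side, the 5 holding domains had little in common in their scores. Lengths ran from 200 to 900 kb, and their median was 375 kb (400 kb over all domains). Imbalance lay between 0.0310 and 0.969, and its median of 0.116 compares with 0.317 over all domains. The domains of Shh, Grem1 and Fgf8 were below that overall median and those of Gli3 and Hand2 above it. The median imbalance difference was 0.0754 against 0.137, and the median cosine score 0.783 against 0.652. With 5 loci chosen by name, these medians are a description and no test was made.

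One of the 5 holding domains, that of Hand2, was class 1, against a background of 35.1% of all domains. Of the 10 flanking domains 5 were class 1, which makes 6 of all 15. With a probability of 0.6 or more the count stayed at 6 of 15 (background 31.1%), and with 0.9 or more it was 2 of 15 (background 16.2%), the Hand2 domain and the lower flank of Fgf8. Counting only flanks that share an edge with the holding domain gave 4 of 13. With so few domains nothing is read from these shares. Holding and flanking domains met at 8 of 10 possible shared edges, against 75.1% of all neighbouring pairs.

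**Figure D3:**
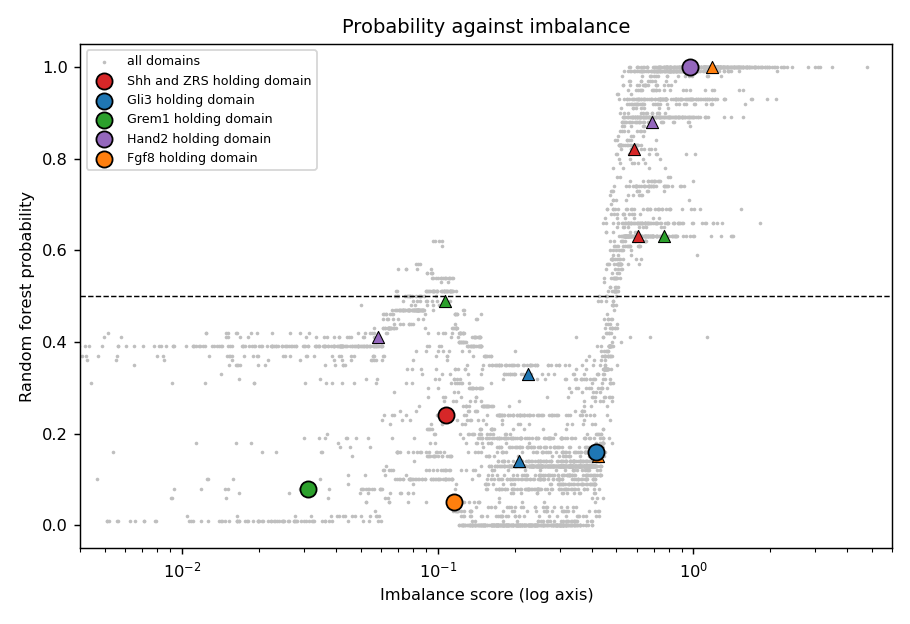
Random forest probability against imbalance score (log axis) for 4098 domains in grey, with holding domains as circles and flanks as triangles in the colour of their locus; 24 domains with an imbalance under 0.004 lie off the axis. The dashed line is the threshold of 0.5. Within the hump at low imbalance, the lower flank of Grem1 (0.49) lies just under the threshold and the Shh (0.24) and Fgf8 (0.05) domains lie further below, and the upper flank of Fgf8 is mostly hidden by the Gli3 circle.

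The domains of Shh and Fgf8 and the lower flank of Grem1 lay where the probability has a second rise, at imbalance scores between 0.0683 and 0.118. The limits of this band were taken from the class 1 calls, as the lowest and highest imbalance of the class 1 domains at low imbalance. It held 362 domains, of which 92 (25.4%) were class 1, and its median probability was 0.44. The share, the median and the counts below only describe a band drawn around these calls, which have a probability of 0.5 or more. The lower flank of Grem1, at 0.49, was above that median, and 103 domains of the band had a probability of 0.49 or more. The Shh domain had a probability of 0.24 at an imbalance of 0.108, and 118 domains of the band were lower. The Fgf8 domain had 0.05 at an imbalance of 0.116, and 8 domains of the band had 0.05 or less. At nearly the same imbalance these 3 domains therefore had unlike probabilities. In the order Grem1 flank, Shh and Fgf8, their imbalance difference scores were 0.0357, 0.0750 and 0.0754. Their cosine scores were 0.754, 0.783 and 0.897 and their lengths 200, 900 and 200 kb, in the same order.

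All points but Grem1 lay near a domain edge. Gli3 was 10 kb from an edge, Shh and Fgf8 15 kb, Hand2 25 kb and the ZRS 35 kb, whereas Grem1 was 110 kb from one. Sequence at 35 kb or less from an edge made up 13.0% of all sequence in domains, and 5 of the 6 points lay there. Within 25 kb it was 9.32%, and 4 of the 5 genes lay there. The distance of 35 kb was chosen after the values were seen, and the comparison is with all sequence, not with all gene starts, for which no mm9 annotation was at hand. With all points moved 25 kb towards lower coordinates, 2 of 6 were within 35 kb of an edge, and with all moved 25 kb the other way 4 of 6. With tuned edges 5 of 6 points were within 35 kb of one, but only Gli3 and Grem1 were inside their tuned domain. The 13.0% above is for the first edges, and no share of sequence within 35 kb was computed for tuned edges. Gli3 lay exactly on its tuned start and Fgf8 on its tuned end. The rule that a domain includes its start but not its end thus counted Gli3 inside and Fgf8 outside. Sequence outside tuned edges made up 11.8% of the sequence in domains.

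**Figure D4:**
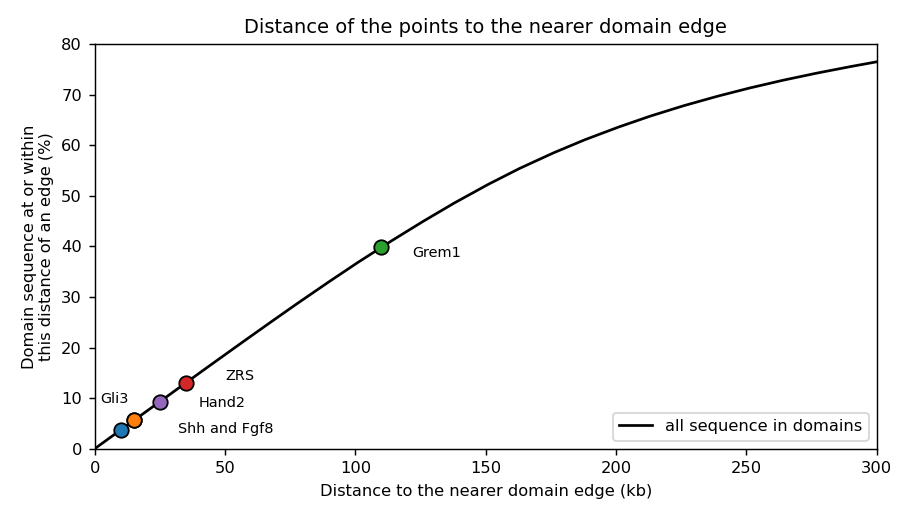
The line gives the percent of all sequence in domains that lies at or within a given distance (kb) of a domain edge, and the circles put the 6 points on it by their own distance. Shh and Fgf8 coincide at 15 kb, and 5 of the 6 points lie at 35 kb or less.

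The end at which a gene lay went with the direction of its domain at all 5 genes. Shh and Gli3 were near the lower edge of domains with direction TRUE. Hand2, Fgf8 and Grem1 were nearer the upper edge of domains with direction FALSE. The ZRS was at the other end of the Shh domain. Over all domains 49.2% had direction TRUE. This pattern was noticed after the values were seen, 4 of the 5 domains were class 0, and the Grem1 domain had an imbalance score of only 0.0310. With points moved 25 kb towards lower coordinates 4 of 5 genes kept to it, Shh being the exception. Gli3 did so in another domain, its lower flank of direction FALSE. With points moved the other way the 4 genes still in a domain kept to it and Hand2 was in the gap. Fgf8 did so in its upper flank, of direction TRUE.

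Around each point, the number of domains was within the quartiles of windows centred on domains. Within 1000 kb on each side, the number of domain midpoints was 3 for Shh, Gli3 and Hand2, 4 for the ZRS and Grem1 and 5 for Fgf8. The median was 4 (quartiles 3 and 5) over windows centred on the midpoints of all 4124 domains. All points but Grem1 lay near a domain edge, so the windows compared were placed differently. Edges in the same windows numbered 7 around Grem1 and Fgf8 and 4 around each of the other points, against a median of 5 (quartiles 4 and 6). Class 1 domains numbered 3 around Hand2, 2 around Shh and the ZRS, 1 around Grem1 and Fgf8 and 0 around Gli3. The median was 1 (quartiles 1 and 2). All 3 domains counted around Hand2 were class 1, but this depended on the window. The class 0 lower flank of Hand2 had its midpoint just outside it, and within 2000 kb 3 of 6 domains were class 1.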

How the data were processed

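The 3 libraries were processed by the authors with BWA and Juicer on build mm9, per the submitters' processing notes, which name no versions. Per the words in the deposited table's name, domains came from TopDom with a quantile threshold of 0.98 and a random forest threshold of 0.5. The authors deposited 1 table for all libraries: a probability per domain (a fraction) and 3 scores whose formulas are not given. Whether contacts were pooled before domain calling is not given either.

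A point belonged to the domain with start at or below it and end above it. Starts are written counting from 1. Values were ranked against all 4124 domains (2 had no probability). No test was made, since there is no value per library and the depth is unknown. The lookup and rank functions were tested on simulated domains. Members and lists were chosen with earlier results of these data known. The genes named are the points of the rule, plus neighbours from RefSeq (GRCm38.p6, names only). No sequence is printed, since no mm9 genome was at hand. Python 3.11.15, pandas 2.3.3 and numpy 2.4.6 were used. Alternatives were other point positions, tuned edges, other reference sets for ranks, higher probability thresholds and other windows.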

Additional observations from a re-analysis of the deposited data

How the results depend on the processing

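The number of domains holding both Shh and the ZRS, 1 as reported, was 0 with points 25 kb lower and 0 with tuned edges. Points in their reported domain numbered 2 of 6 with tuned edges, where Gli3 (counted inside) and Fgf8 (counted outside) lay exactly on an edge. The median distance to the nearer edge went from 20 to 10 kb. With points 25 kb lower, 2 points were within 35 kb of an edge, against 5; this result and that on direction were added after seeing the data. Class 1 among all 15 domains fell from 6 to 2 at a probability of 0.9 or more. The median rank of the 5 holding domains moved from 44.8 to 46.6 (same chromosome) and 42.7 (tuned edges) for length. It moved from 35.3 to 40.1 (same chromosome) and 54.4 (same class) for probability, and from 20.1 to 27.5 (same class) for imbalance. For imbalance difference it moved from 29.5 to 41.9 (same class) and 32.9 (domains 0.5 to 2 times as long), and for cosine from 76.6 to 78.0 (same chromosome) and 68.7 (same class). Of 75 ranks of single domains under alternatives, 71 stayed on the same side of 50, and the other 4 were ranks within the same class. These were Shh probability (43.3 to 66.8), Gli3 probability (35.3 to 54.4), Gli3 imbalance difference (40.7 to 58.7) and Hand2 cosine (48.8 to 63.8). The moves of probability ranks within a class follow from how class goes with probability, and say nothing on stability. The scores went with class too. Median imbalance was 0.203 in class 0 and 0.704 in class 1, and median imbalance difference 0.0900 and 0.308. Median cosine was 0.695 in class 0 and 0.579 in class 1. Moves of these ranks within a class are thus in part set by the class itself, and are no measure of stability either. The largest move of a single rank was 29.7 percentage points, Gli3 imbalance within its class (61.2 to 90.9). With points moved 25 kb lower or higher, 4 of 6 stayed in their reported domain; Shh and Gli3 left theirs when moved lower, and Hand2 and Fgf8 when moved higher. In windows of 2000 kb on each side the median was 7.5 domains and 9 edges, against 3.5 and 4, and in windows of 500 kb it was 2 edges, which follows from the window itself. The remaining alternatives of the counts stayed within 1.5 times the reported count, and those of the median ranks within their 95% Wilson interval. That interval covers only the number of domains in the table. It does not measure the spread among the 5 loci or between libraries. No library could be left out. No paired analysis was possible because the only table has 1 group and no values per library.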

Other observations

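The next domain beyond the upper flank was long and ranked high in imbalance difference at Gli3 and Grem1, genes whose own domains had no stripe call; both were picked out once their values had been seen. At Gli3 it spanned 16075001 to 17775000 on chromosome 13, 1700 kb long, with direction TRUE, a probability of 1.00 and an imbalance difference score of 0.541 (rank 96.2). At Grem1 it spanned 114000001 to 115675000 on chromosome 2, 1675 kb long, with direction FALSE, a probability of 1.00 and an imbalance difference score of 0.471 (rank 93.3). Only 132 and 135 domains of the table were longer. The domains of Shh and Fgf8 also had no stripe call, but the next domain beyond their upper flank was unlike these. It was 375 kb long at Shh (probability 0.17, imbalance difference rank 31.2) and 350 kb at Fgf8 (probability 0.13, rank 58.7), both class 0. The class 1 domains named next were picked out as well, and class 1 made up 35.1% of all domains. The domain below the lower flank of Shh, 27975001 to 28425000 on chromosome 5, was class 1 with a probability of 0.93 and an imbalance score of 1.13. At Hand2, the domain above the upper flank, 60350001 to 61000000 on chromosome 8, was class 1 with a probability of 0.63, so that 3 class 1 domains followed each other from Hand2 upwards, with directions FALSE, TRUE and FALSE. Below the domain next to the Hand2 lower flank came a gap of 1675 kb in no domain.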
